A study of Mus musculus with 32 samples.

Results

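TAF6L occupancy was measured by chromatin pull-down and sequencing in 2 lines of J1 mouse embryonic stem (ES) cells, called 15 and 9, each of which expresses TAF6L with a Flag-Biotin (FB) tag. The control was BirA, a J1 library with no tagged TAF6L named in its label, pulled down with the same streptavidin reagent. The lists were chosen by sample title and cut to chromosomes 1 to 19: 1140 peaks of line 15, 624 of line 9 and 24 of BirA, which is 1788 of the 371463 autosomal peaks in the 26 peak lists of the series. They come from 3 of its 32 samples. All 3 are marked as wild type, and each had an input library of its own. Their peaks were also set against lists of 7 targets precipitated with antibodies from wild-type J1 cells (H3K4me3, H3K9ac, RNA polymerase II in total form, RNAP, and with phosphorylated serine 5 or serine 2, Myc and Oct4), and against H3K4me3, H3K9ac, RNAP and Oct4 in Taf5l-KO and Taf6l-KO cells.

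TAF6L is a relative of the general transcription factor subunit TAF6 and a core subunit of SAGA, a coactivator complex that acetylates histone H3 and meets DNA-bound activators at promoters and enhancers. In a bioChIP, the bacterial ligase BirA attaches biotin to a short peptide on the protein of interest, and streptavidin then captures that protein with the DNA crosslinked to it. Streptavidin also holds DNA that does not depend on the tag, and a library from cells without a tagged protein measures that part. H3K4me3 marks active and poised promoters. Oct4 is the pluripotency factor that binds mostly enhancers in ES cells. Phosphorylation of serine 5 in the polymerase tail goes with early transcription, and that of serine 2 with elongation.

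Each library was sequenced once and its peaks were called alone, so each line is 1 sample and BirA is 1 sample. The 2 lines can be compared only by their lists, with no test over samples. The labels do not say how the lines were derived from each other, or which promoter drives the tagged protein. Intervals below are exact (Clopper-Pearson) 95% binomial intervals over peaks. They reflect the number of peaks alone, without any spread between samples, and peaks close together may share their signal. The depth behind the lists was 21276172 unique tags for line 15, 18292747 for line 9 and 25129895 for BirA, with inputs of 28820371, 35304257 and 26835026 unique tags.

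The peaks of both lines were small and alike in size. Fold enrichment, the ratio of the peak's tag height to the local background of the input, had a median of 4.22 in line 15 (range 1.33 to 8.22) and 4.38 in line 9 (1.39 to 8.13). The median height was 21 tags in line 15 and 20 in line 9, and the median width 352 and 356.5 bp. Peaks as narrow as the caller allowed, 300 bp, made up 14.1% of line 15 and 13.0% of line 9. The BirA list was different in kind: its median fold enrichment was 2.33 (1.73 to 3.64), its median height 97 tags and its median width 67.5 bp.

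The lists were also made differently. The fragment length was set to 300 bp for the TAF6L-FB lists and modelled as 49 bp for BirA, per the file headers. At most 1 tag was kept per position and strand, so the height of a peak cannot pass 98 tags in BirA and 600 in the TAF6L-FB lists. In BirA, 18 of 24 peaks lay within 2 tags of that ceiling, and the highest stood at 98. No peak of either line came that close, with highest values of 581 in line 15 and 565 in line 9. A BirA list called at the fragment length of the other lists was not analysed here, so the BirA list is not a control of equal settings.

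The 2 lines had few peaks in common. Of the line 15 peaks, 133 of 1140 overlapped a line 9 peak by at least 1 bp (11.7%, 9.86 to 13.7%), and 133 of 624 line 9 peaks overlapped line 15 (21.3%, 18.2 to 24.7%). Both shares count 133 peaks, over lists of unequal length. Between the 624 peaks of highest fold in each list, the shares were 11.2% of line 15 and 11.4% of line 9. Most unshared peaks had no peak of the other line nearby. Allowing gaps under 1000 bp brought the shared peaks only to 143 in each list, and a distance of 10000 bp to 177 of line 15 and 181 of line 9.

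Joining both lists gave 1630 regions, of which 9 overlapped a BirA peak. The other 1621 fell into 127 regions found in both lines (7.83%), 1005 found in line 15 only (62.0%) and 489 found in line 9 only (30.2%). These 3 classes are the basis of the comparisons that follow.

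At the 127 shared regions the highest points of the 2 peaks lay a median of 83 bp apart, with an upper quartile of 148 bp, and 73 regions had them within 100 bp. Overlap of peaks this narrow already limits that distance. Fold enrichment was higher in line 9 than in line 15 at 79 of the 127. The genome-wide background was 3.41 tags in line 15 and 2.93 in line 9, so an equal height over it gives a higher fold in line 9. Across the shared regions the heights of both lines ranked alike more than the fold enrichments did (Spearman 0.67 and 0.44, n = 127 regions, which share the libraries). At the 111 shared regions with a fold enrichment of at least 3 in a line, these values were 0.51 and 0.17.

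**Figure D1:**
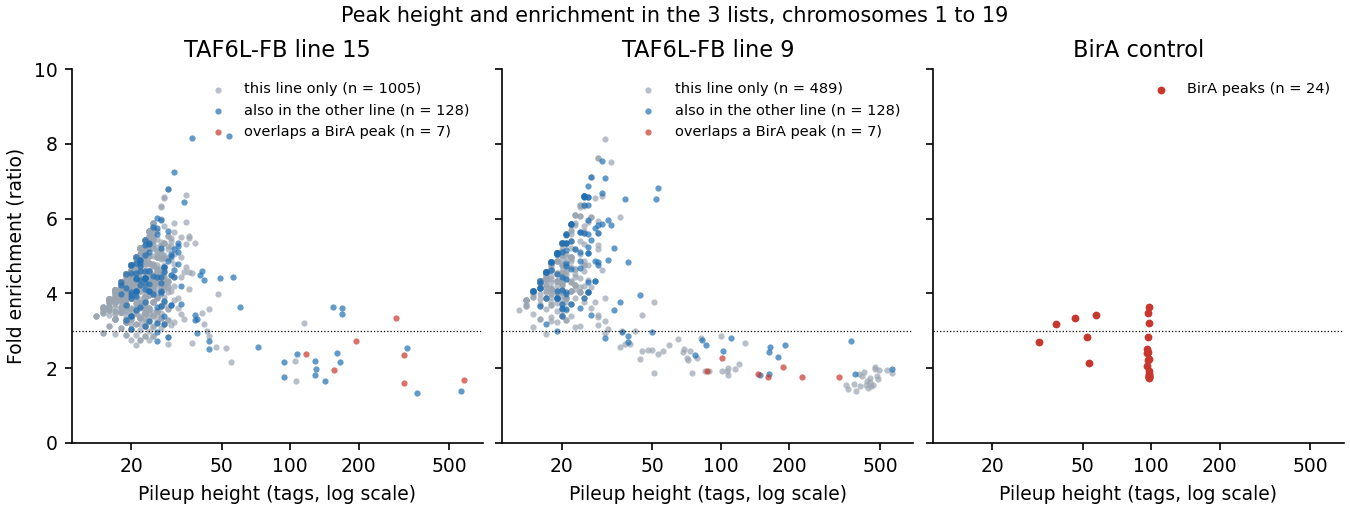
Fold enrichment (ratio, y axis) against pileup height (tags, log x axis) of every peak in the TAF6L-FB line 15, TAF6L-FB line 9 and BirA lists. Grey points were found in 1 line, blue points overlapped the other line, red points overlapped or are BirA peaks, and the dotted line marks a fold of 3. Most TAF6L-FB peaks sit near 20 tags and above a fold of 3, while the line peaks at BirA sites are 87 tags or higher and at or below a fold of 3.34.

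Strength did not separate shared from unshared peaks in the same way on each scale. Ranked by height, the share of line 15 peaks found in line 9 went from 32.5% in the strongest quintile of the list to 1.32% in the weakest. For line 9 it went from 37.6% to 9.60%. The strongest quintile by height is not the strongest by fold. In line 9, 80 of its 125 peaks had a fold under 3 and 7 overlapped BirA. In line 15 these were 33 and 7 of 228. Ranked by −log10 q, the shares of the strongest and weakest quintiles were 24.1% and 5.70% for line 15, and 44.0% and 15.2% for line 9.

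By fold enrichment the shares were high at both ends. In line 15 they were 13.6%, 11.8%, 7.89%, 7.89% and 17.1% from the strongest to the weakest quintile, and in line 9 34.4%, 19.2%, 9.68%, 15.2% and 28.0%. The weakest quintile by fold holds all the line peaks at BirA sites and all peaks under a fold of 3. With peaks under a fold of 3 left out of both lists, the strongest and weakest quintiles stood at 13.8% and 8.26% in line 15, and at 34.9% and 21.1% in line 9. With such peaks left out of the ranked list alone, the line 9 quintiles were 34.9%, 22.2%, 13.0%, 8.33% and 21.1%. Those of line 15 were 13.8%, 11.9%, 6.42%, 8.26% and 9.63%. The weakest quintile of line 9 (13.9 to 30.0%) thus stayed above quintiles 3 (7.27 to 20.8%) and 4 (3.88 to 15.2%), but its interval overlapped both of theirs.

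How many of the strongest peaks were shared depended on the measure, more so in line 15. Of its top 100 peaks, 18 were found anywhere in line 9 by fold, 39 by −log10 q and 52 by height. Of the top 100 of line 9, 37 were found in line 15 by fold, 44 by −log10 q and 36 by height. In the top 100 of both lists were 8 line 15 peaks by fold, 20 by −log10 q and 34 by height.

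**Figure D2:**
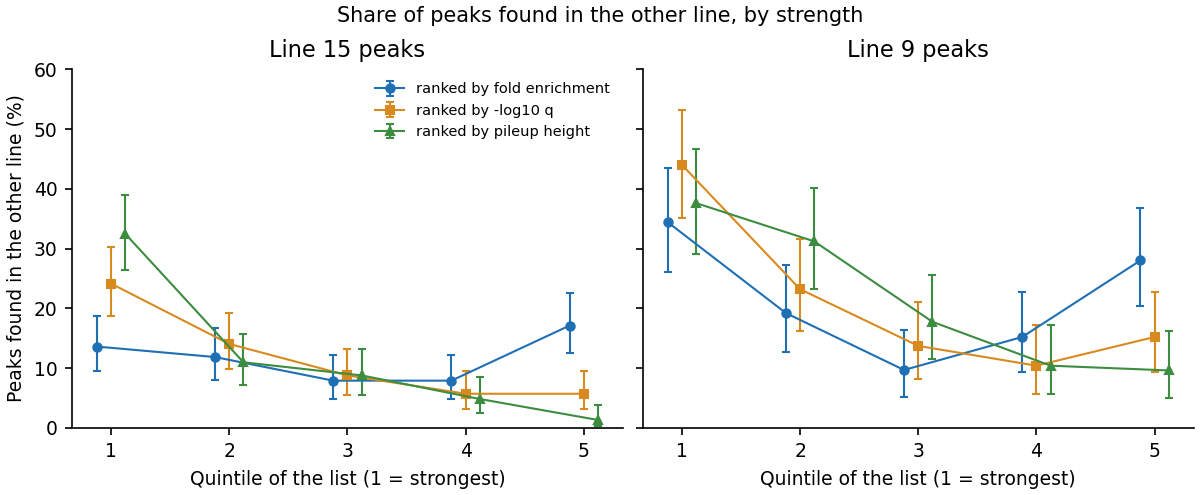
Share of peaks found in the other line (%, y axis) by quintile of the list (x axis, 1 is the strongest), for line 15 on the left and line 9 on the right, with exact 95% intervals. Ranked by height or −log10 q the strongest quintile is shared most, while by fold enrichment the weakest quintile is high again (17.1% and 28.0%).

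Shared peaks were wider and taller than unshared ones within each list, with nearly equal fold enrichment in line 15. In line 15 the 128 peaks found in line 9 and outside BirA had a median width of 403.5 bp, a height of 26 tags and a fold of 4.27, against 346 bp, 21 tags and 4.23 at the 1005 others. In line 9 the 128 shared peaks had 404.5 bp, 24.5 tags and a fold of 4.70, against 347 bp, 19 tags and 4.32 at the 489 others. Peaks at the minimum of 300 bp were 4.69% of the shared and 15.4% of the unshared peaks in line 15, and 7.03% and 14.5% in line 9. The joined regions found in both lines had a median width of 538 bp, which is larger by construction.

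The 8 regions that ranked highest in both lines show how varied the shared sites were in their wild-type marks. The region chr12:87842523-87843261 (mm9) had a fold of 6.03 in line 15 and 7.09 in line 9, with peaks of Oct4 and all 3 polymerase forms and no H3K4me3 peak. At chr7:3201083-3201777 the folds were 8.16 and 6.57, with Oct4, RNAP and serine 2 polymerase. At chr4:57703554-57704087 they were 5.97 and 6.38, and Oct4 was the only target found. All 3 carry Oct4 and RNAP or Oct4 alone, and lack H3K4me3.

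Of the other 5, 4 had H3K4me3, and all 5 had RNAP. The region of highest fold in the line 15 list, chr1:88383892-88384439, had 8.22 in line 15 and 5.84 in line 9, with H3K4me3, H3K9ac, RNAP and serine 2 polymerase. At chr17:29588032-29588603 the folds were 6.80 and 5.35, with H3K4me3, RNAP and serine 5 polymerase. At chr11:86570962-86571349 they were 6.45 and 5.25, with H3K4me3 and all 3 polymerase forms. The region chr15:96075180-96075607 had 5.33 and 6.61, with RNAP and serine 2 polymerase but neither H3K4me3 nor Oct4. At chr3:96292306-96293001 the folds were 7.25 and 5.12, and 6 of the 7 targets had a peak, with a wild-type RNAP fold of 47.2.

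Some of the highest folds of each list were at regions that only 1 line called. In line 15 the 5 highest ran from 6.34 to 6.80. They were chr3:96290267-96290910, with the same 6 targets as its neighbour above, chr8:87174132-87174555 and chr2:127033775-127034278 with H3K4me3 and RNAP, chr4:133951848-133952318 with H3K4me3, and chr5:18194345-18194849 with no target. In line 9 they ran from 7.12 to 8.13, above the line 9 fold of each of the 8 shared regions just named. The highest line 9 fold of any shared peak outside BirA was 7.54, within that range. The highest peak of the whole line 9 list, chr17:4626130-4626725, had no wild-type target, and the others were chr11:96051467-96051947 with H3K4me3, chr5:65255938-65256504 with RNAP, chr14:71034302-71035225 with H3K4me3, RNAP, serine 2 polymerase and Oct4, and chr7:3206433-3206912 with RNAP and Oct4. No gene is assigned to these regions, because an annotation in the build of the lists was not used here.

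The wild-type marks differed between the classes. Oct4 stood out at regions found in both lines: 50 of 127 had a wild-type Oct4 peak (39.4%, 30.8 to 48.4%), against 88 of 489 in line 9 only (18%, 14.7 to 21.7%) and 114 of 1005 in line 15 only (11.3%, 9.45 to 13.5%). Over all 1621 regions the share was 15.5%. The interval of the shared class overlapped neither of the others. At a stricter threshold for the TAF6L-FB lists, a −log10 q of 5 or more, the shares were 35.9% of 64 in both lines (24.3 to 48.9%), 28.9% of 225 in line 9 only (23.1 to 35.3%) and 14.1% of 427 in line 15 only (10.9 to 17.7%), and the first 2 intervals overlapped.

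H3K4me3 had another order. It was found at 67.9% of regions in line 15 only (64.9 to 70.7%), 53.5% in both lines (44.5 to 62.4%) and 40.1% in line 9 only (35.7 to 44.6%), against 58.4% of all. The intervals of line 15 only and both lines did not overlap, and those of both lines and line 9 only met only at their ends. Regions that both lines found were not the class richest in this promoter mark.

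RNAP was found at 68.5% of regions in both lines (59.7 to 76.5%), 58.7% in line 15 only (55.6 to 61.8%) and 43.4% in line 9 only (38.9 to 47.9%), against 54.8% of all. The first 2 intervals overlapped, and the third lay below both. The remaining targets kept this order with smaller differences. Serine 2 polymerase was at 40.9%, 36.5% and 25.6% (33.6% of all), serine 5 polymerase at 26.8%, 24.9% and 20.9% (23.8%), H3K9ac at 19.7%, 16.9% and 10.0% (15.1%) and Myc at 5.51%, 4.08% and 2.25% (3.64%). For serine 5 polymerase and Myc the intervals of all 3 classes overlapped.

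**Figure D3:**
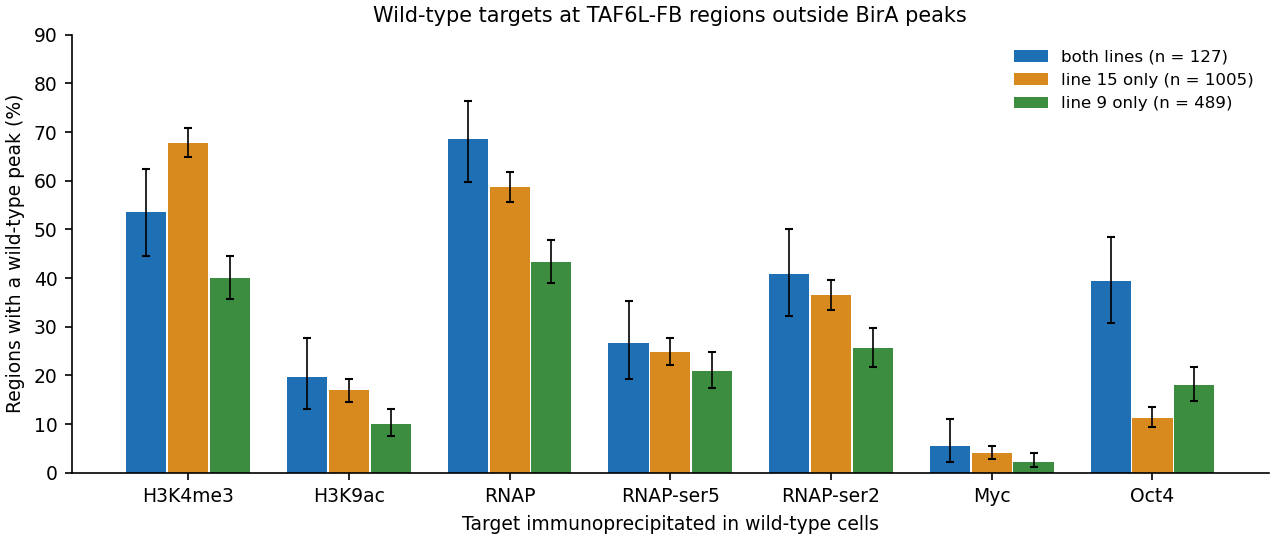
Share of TAF6L-FB regions with a wild-type peak of each target (%, y axis) in regions found in both lines, line 15 only and line 9 only, with exact 95% intervals as error bars. Oct4 is highest in regions of both lines (39.4%), H3K4me3 in line 15 only (67.9%), and line 9 only is lowest for 6 of the 7 targets.

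Combinations of marks showed the same difference. Oct4 without H3K4me3 was the state of 23.6% of regions in both lines (16.5 to 32.0%), 12.3% in line 9 only and 6.97% in line 15 only. H3K4me3 without Oct4 was that of 37.8%, 34.4% and 63.5%. Both marks together were at 15.7% of shared regions, and at 5.73% and 4.38% of those in line 9 only and line 15 only. Regions with none of the 7 targets were 14.2% of the shared class (8.62 to 21.5%), 18.1% of line 15 only (15.8 to 20.6%) and 31.9% of line 9 only (27.8 to 36.2%). Among regions with Oct4 and no H3K4me3, RNAP was present at 63.3% of 30 in both lines (43.9 to 80.1%), 36.7% of 60 in line 9 only (24.6 to 50.1%) and 34.3% of 70 in line 15 only (23.3 to 46.6%), with intervals that overlapped.

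Joined regions of the shared class are wider, so the Oct4 shares were also taken on each line's own peaks, within quintiles of fold enrichment. Shared peaks are also taller and wider in each list, and quintiles of fold do not hold height or width equal. The part of height and width in the Oct4 shares was therefore not tested. Over all quintiles of line 15, 38.3% of the shared and 11.3% of the unshared peaks had Oct4. In the strongest quintile these were 41.9% of 31 and 15.3% of 196, and in the weakest 22.2% of 36 and 11.5% of 191. In line 9 they were 39.1% and 18% over all, 51.2% of 43 and 34.6% of 81 in the strongest quintile, and 25.8% of 31 and 7.53% of 93 in the weakest. The shared peaks had the higher share in all 5 quintiles of both lists, with intervals that overlapped in 7 of the 10 and lay apart in 3, all of line 15. The shared peaks of both lists lie in the same regions, so these 10 comparisons are not independent.

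The lines also differed in how Oct4 followed strength. In line 9 the share of peaks with Oct4 was 40.3%, 30.9%, 14.6%, 13.8% and 12.1% from the strongest to the weakest quintile by fold. In line 15 it was 18.9%, 12.4%, 11.9%, 15.5% and 13.2%. H3K4me3 went the other way in the upper part of line 9, with 37.9% in the strongest quintile and 54.5% in quintile 4, then 29.0% in the weakest, and stood between 60.4% and 70.9% in line 15. Over whole lists outside BirA, H3K4me3 was at 66.0% of line 15 and 42.8% of line 9 peaks, RNAP at 59.8% and 48.6%, and Oct4 at 14.4% and 22.4%.

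**Figure D4:**
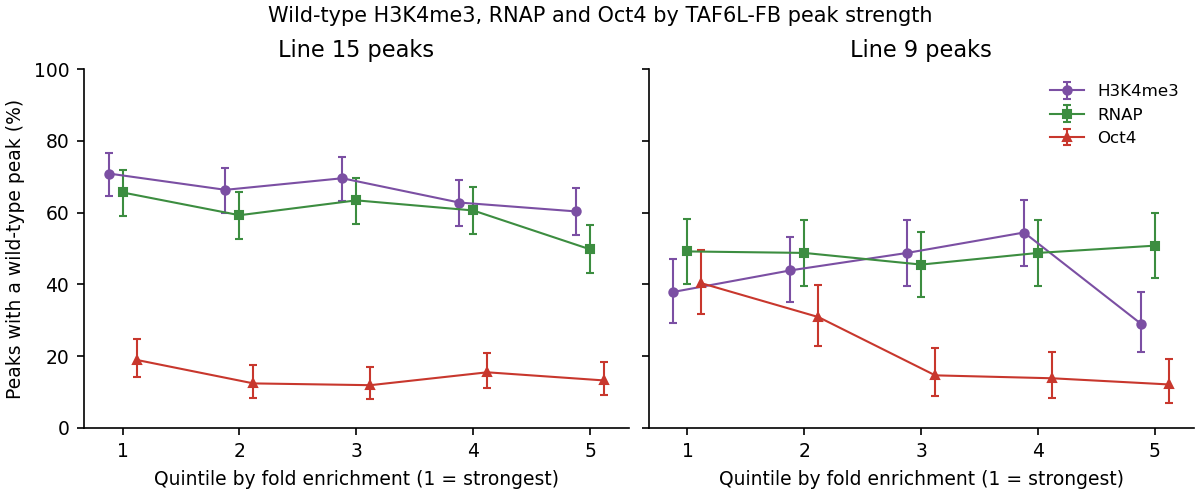
Share of TAF6L-FB peaks outside BirA with a wild-type H3K4me3, RNAP or Oct4 peak (%, y axis) by quintile of fold enrichment (x axis, 1 is the strongest), for line 15 on the left and line 9 on the right, with exact 95% intervals. In line 9 the Oct4 share is highest in the strongest quintile (40.3%), and in line 15 H3K4me3 is above 60% in every quintile.

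The BirA control overlapped TAF6L-FB at few places, and these were weak by fold enrichment. Its 24 peaks lay at 11 places more than 5 kb apart, with 9 peaks on chromosome 2 and 5 on chromosome 1. Of them, 16 overlapped line 15, 10 overlapped line 9, 8 overlapped both, and 6 overlapped neither. The 7 line 15 peaks at BirA sites had folds of 1.60 to 3.34 and ranked between 1020 and 1138 of 1140. The 7 in line 9 had folds of 1.75 to 2.26 and ranked between 580 and 611 of 624.

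By other measures the same peaks were among the strongest. They were 117 to 581 tags high in line 15 and 87 to 332 in line 9. The line 15 peak at chr2:22443253-22443883, which 3 BirA peaks overlap, had the highest −log10 q of the list, 59.3, with a fold of 3.34 and a height of 291 tags. The widest of the 9 regions, chr1:24618321-24623094, held 5 BirA peaks, and its folds were 1.68 in line 15 and 1.75 in line 9. No BirA peak overlapped any of the 7 wild-type targets (0 of 24, upper limit 14.2%), and neither did any of the 9 regions (0 of 9, upper limit 33.6%). Regions at BirA sites were 5 of the 132 joined regions found in both lines (3.79%), 2 of 1007 in line 15 only (0.199%) and 2 of 491 in line 9 only (0.407%).

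The range of BirA folds gives no upper bound for the control, since most BirA heights were at their ceiling and the fragment lengths differ. By fold, 907 line 15 peaks (79.6%) and 507 line 9 peaks (81.2%) lay above the highest BirA value of 3.64. By height the order was the other way, with line medians of 21 and 20 tags below the lowest BirA height of 32.

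Peaks of low fold also occurred outside BirA sites. Under a fold of 3 there were 50 line 15 peaks (4.39%), 82 line 9 peaks (13.1%) and 18 BirA peaks (75%). Outside BirA, 96 regions (5.92%) had a fold under 3 in every line that called them: 16 in both lines, 25 in line 15 only and 55 in line 9 only. The 16 shared ones had median heights of 118 tags in line 15 and 130 in line 9, and the 55 of line 9 a median of 106, while the 25 of line 15 had 24. Oct4 was found at 5 of the 96 regions (5.21%, 1.71 to 11.7%) and H3K4me3 at 28 (29.2%). RNAP was found at 46 (47.9%, against 54.8% of all regions) and serine 5 polymerase at 37 (38.5%, 28.8 to 49.0%, against 23.8%). Of these, 18 with RNAP and 17 with serine 5 polymerase lay in 1 line 9 run on chromosome 9, described below. The interval thus counts neighbouring peaks of 1 place as separate regions. No target was found at the 9 regions at BirA sites. Without the 96 regions, the Oct4 shares were 44.1% in both lines, 19.4% in line 9 only and 11.6% in line 15 only.

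Many of the low regions of line 9 lay in runs, defined as 4 or more peaks of a list each within 20 kb of the next. Line 9 had 4 runs with 35 peaks (5.61% of its list), and line 15 had 3 with 12 peaks (1.05%). The longest, at chr9:2999947-3038386, held 18 line 9 peaks with folds of 1.45 to 2.02 and heights of 355 to 565 tags. Line 15 and BirA had no peak there. All 18 overlapped wild-type RNAP and 17 overlapped serine 5 polymerase, but none overlapped H3K4me3, Oct4 or serine 2 polymerase.

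The other line 9 runs were also of low fold. At chr11:3023546-3099551 there were 8 peaks (folds 1.83 to 2.98), 2 of them in line 15. At chr17:3080372-3083055 there were 4 (1.91 to 2.46), 2 of them in line 15, and at chr6:47604874-47635567 there were 5 (2.23 to 3.0), 1 of them in line 15 and all 5 with H3K4me3.

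The runs of line 15 were different, with folds of 3.13 to 5.66 and heights of 17 to 30 tags. At chr12:55814982-55839696 all 4 peaks had H3K4me3, H3K9ac and the 3 polymerase forms, and 3 had Oct4. At chr1:72272521-72291021, 3 of 4 peaks had these 5 targets and 2 had Oct4. At chr8:73284927-73321437 all 4 had H3K4me3 and none had Oct4.

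The peaks were spread unevenly over the chromosomes, and on some of them the input background was raised. In line 15, chromosome 1 held 171 peaks (15.0%) and chromosome 8 held 138 (12.1%), while the other 17 held 2.37% to 7.11% each. Local background was derived from the height and fold of each peak with a fold of at least 3. Its median on chromosomes 1 and 8, divided by the genome-wide background, was 1.53 and 1.51, against 1.01 to 1.11 on the others. In line 9, chromosome 1 held 84 peaks (13.5%), chromosome 12 held 52 (8.33%) and chromosome 14 held 28 (4.49%), with ratios of 1.37, 1.32 and 1.48 against 1.00 to 1.11 on the others. The other 16 held 1.76% to 9.94% of line 9 each. The highest of them was chromosome 11 with 62 peaks at a ratio of 1.01. The 7 wild-type lists held 6.56% to 13.0% of their peaks on chromosome 11, a range that includes the line 9 share.

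These chromosomes were singled out after their values were seen. Together chromosomes 1 and 8 held 27.1% of line 15, against 12.5% to 15.0% of the 7 wild-type lists, and chromosomes 1, 12 and 14 held 26.3% of line 9, against 13.7% to 18.1%. The same ratio in the wild-type Oct4 list was highest on chromosome 1 (2.21, the highest of 19). The next highest was 1.92 on chromosome 3, where the ratios of lines 15 and 9 were 1.08 and 1.11. On chromosomes 8, 12 and 14 the Oct4 ratio was 1.44, 1.44 and 1.68, and it was also 1.44 on chromosomes 4 and 13. The Oct4 list had a shorter fragment (109 bp) and fewer unique input tags (7771755) than the TAF6L-FB lists. Its genome-wide background is thus fewer tags than the 3.41 of line 15 and 2.93 of line 9. The Oct4 ratios move in coarser steps and are not comparable in size with those of the lines. The part of the raised background in the unequal lists was not tested. Pooled over these chromosomes and over the others, the shares found in the other line were 12.9% (9.41 to 17.2%) and 11.2% (9.13 to 13.5%) in line 15, and 23.2% (16.9 to 30.4%) and 20.7% (17 to 24.6%) in line 9. Within the pooled set they went apart: in line 15 the share was 16.4% on chromosome 1 and 8.70% on chromosome 8, and in line 9 it was 34.5% on chromosome 1, 13.5% on 12 and 7.14% on 14. Chromosome 1 alone held 27 of the 127 shared regions. Without chromosomes 1, 8, 12 and 14, Oct4 was at 42.5% of regions in both lines, 17.8% in line 9 only and 11.8% in line 15 only.

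**Figure D5:**
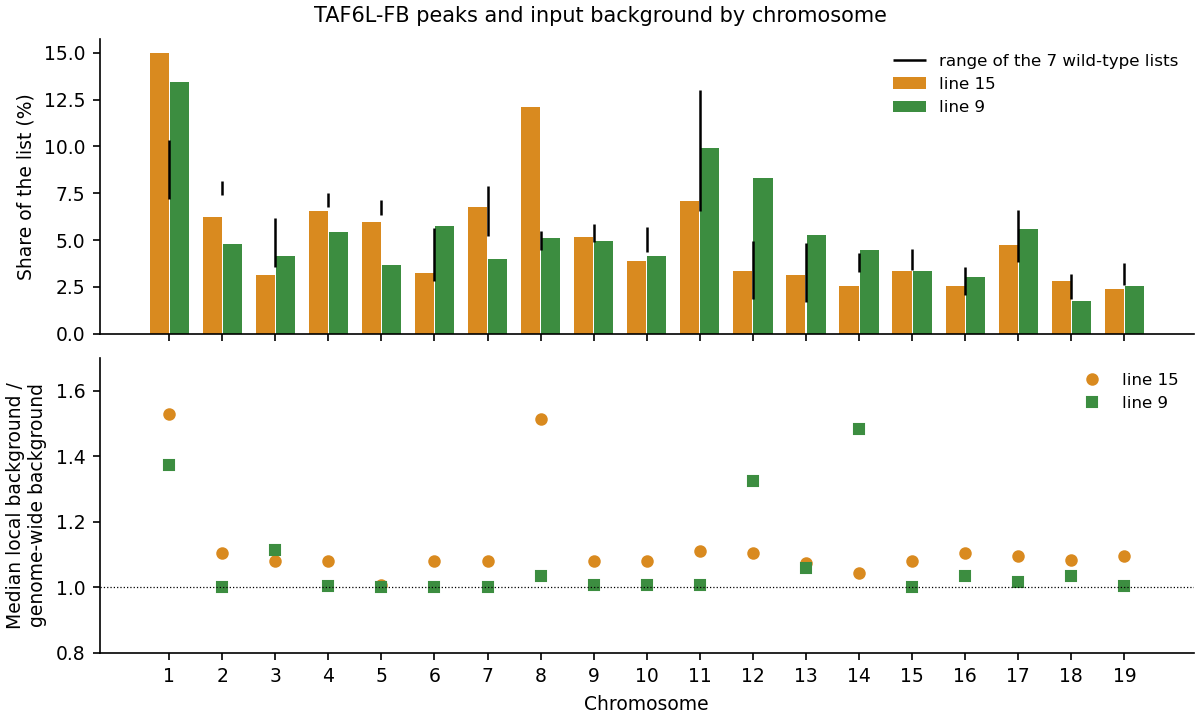
Upper panel, share of each TAF6L-FB list per chromosome (%, bars) with the range over the 7 wild-type lists (black lines). Lower panel, median local background of the line's peaks with a fold of at least 3, divided by the genome-wide background (ratio). Chromosomes 1 and 8 in line 15 and 1, 12 and 14 in line 9 have ratios above 1.3, and all others are at or below 1.11.

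The strength of the wild-type mark peaks at TAF6L-FB regions, against their whole lists, depended on the target and the class. The median fold of H3K4me3 peaks was 8.81 at regions in line 15 only, 6.82 in line 9 only and 5.60 in both lines, against 5.55 over all H3K4me3 peaks. RNAP peaks had 5.40, 4.78 and 4.96 in that order, against 4.34. Oct4 peaks had 8.71, 8.23 and 8.40, against 7.73. Myc peaks were few (41, 12 and 8) and had 7.76, 8.52 and 5.36, against 8.16, so those at regions in both lines and in line 15 only lay below their list.

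The same marks in the knockouts were compared as the share of wild-type peaks that a knockout peak overlapped, first in Taf5l-KO and then in Taf6l-KO. Of all wild-type RNAP peaks, 52.5% and 60.1% were overlapped. At regions in both lines the shares were 95.4% and 94.3% of 87 peaks, in line 15 only 95.2% and 95.1% of 586, and in line 9 only 83.3% and 85.9% of 198. RNAP at TAF6L-FB regions was found again more often than over its list, and least often in line 9 only. The Taf5l-KO RNAP library held 15865460 unique tags and the wild-type library 5174150. RNAP peaks at regions of each class were also wider than their list. Their median widths were 929 bp in both lines, 736.5 bp in line 15 only and 812.5 bp in line 9 only, against 477 bp. The part of depth, peak strength and peak width in these shares was not tested.

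Oct4 peaks were overlapped in 59.4% and 47.0% of all cases. At regions in both lines these were 74.0% (59.7 to 85.4%) and 72.0% (57.5 to 83.8%) of 50, in line 15 only 65.0% and 50.4% of 117, and in line 9 only 60% and 50.0% of 90. The intervals of the 3 classes overlapped. H3K4me3 peaks were overlapped in 84.2% and 80.3% of all cases, in 89.6% and 94.0% at both lines, in 93.9% and 95.1% at line 15 only and in 90.2% and 90.2% at line 9 only.

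H3K9ac, a mark that SAGA places, had fewer peaks in the knockout lists: 110 in Taf5l-KO and 880 in Taf6l-KO, against 4024 in wild type. These H3K9ac libraries held 22968606, 18739413 and 17460064 unique tags in that order, and their inputs 6245652, 5923469 and 7771755. The part of depth was not tested. Of all wild-type peaks 2.61% and 19.4% were overlapped. At regions in both lines these were 1 of 25 (4.0%) and 12 of 25 (48.0%, 27.8 to 68.7%), in line 15 only 6.55% and 38.1% (30.7 to 45.9%) of 168, and in line 9 only 2.08% and 20.8% (10.5 to 35.0%) of 48. Those H3K9ac peaks were also stronger than their list, with median folds of 5.12, 5.37 and 5.12 against 4.82. They were wider too, with median widths of 648, 649 and 769.5 bp against 483 bp. The part of strength and width in these shares was not tested.

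TAF5L, the partner subunit of TAF6L in SAGA, was tagged in the same way in lines A5 and A6. The A5 list, with 136 peaks, overlapped 24 of the 127 regions in both TAF6L-FB lines (18.9%, 12.5 to 26.8%), 25 of 489 in line 9 only (5.11%) and 31 of 1005 in line 15 only (3.08%). The A6 list held 7 peaks and overlapped none of the 1621 regions, but 4 of the 9 regions at BirA sites, of which A5 overlapped 3.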

How the data were processed

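The 3 lists are bioChIP-seq of TAF6L-FB lines 15 and 9 and of BirA. The wild-type lists are ChIP-seq of 7 targets. The submitters' processing notes name Bowtie2 2.3.2, deepTools 2.5.3, MACS2 2.1.1.20160309 and the genome build mm9. MACS2 called each library alone against an input, at a q cutoff of 0.05, with 1 tag kept per position, per the file headers. The larger library was scaled to the smaller. Histone mark and polymerase lists were called broad, and the others narrow, per the file headers. The deposited lists give for each peak a height (signal), a fold enrichment (ratio) and −log10 p and −log10 q. These are the authors' values and served to rank, filter and describe peaks within a list. Folds and heights were also set side by side between lists, as a description only, since each list was scaled separately.

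Lists were compared by overlap of at least 1 bp. Both TAF6L-FB lists were joined, and regions overlapping BirA were set aside. Quintiles are 5 equal parts of a list ranked by the measure named. Local background is (height + 1) divided by the fold, minus 1. Its medians per chromosome in the TAF6L-FB lists use only peaks with a fold of at least 3. Classes were compared by shares with exact 95% intervals, and no p-value was computed. Overlap code was tested on simulated lists: all 213 planted overlaps among 1000 and 513 intervals were recovered. Python 3.11.15, pandas 2.3.3, numpy 2.4.6 and SciPy 1.17.1 were used. The members and the rules were chosen with earlier results of these data known. Named regions are, on chromosomes 1 to 17 and 19 and outside BirA, the 8 of lowest mean fold rank in both lines, the 5 of highest fold in each line alone, line peaks at BirA sites and runs. Chromosomes X and Y, mitochondrial DNA and unplaced contigs were left out of the main comparisons.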

Additional observations from a re-analysis of the deposited data

Results flagged for a closer look

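Some peaks lay outside chromosomes 1 to 19, in part where BirA had none or fewer. Line 15 had 3 peaks on an unplaced contig of chromosome 8, and line 9 had 1 there, against 0 in BirA. Line 9 had 4 peaks on chromosome X and 2 on other unplaced contigs, against 0 in BirA. On mitochondrial sequence, line 9 had 8 peaks against 2 in BirA, and line 15 had 1, fewer than BirA.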

How the results depend on the processing

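The shares between lines, the BirA overlap, the quintiles, the widths and the shares of wild-type marks were each recomputed under the planned settings that apply to them, from among these (stricter q, 50% coverage, gaps under 1000 bp, equal list lengths, merged neighbours, chromosomes X and Y, other ranks, runs left out, BirA regions kept, each line left out) and 2 added after seeing the data (peaks under a fold of 3 and chromosomes 1, 8, 12 and 14 left out). Combinations, knockout shares, TAF5L overlap, summit distances and runs were not recomputed. Of 226 recomputed values, 153 stayed within the 95% interval of the reported value. Some of these could not move by construction, such as the width of regions found in 1 line, taken from that line's own list. The order of the 3 classes was the same in all 8 alternatives run for H3K4me3, RNAP and Oct4, in 7 of 8 for serine 5 and serine 2 polymerase and Myc, and in 6 of 8 for H3K9ac. Of line 15 peaks, 14% were in line 9 at −log10 q of at least 5, and 9.63% without peaks under a fold of 3. At equal list lengths, 11.4% of line 9 peaks were in line 15, and 5.98% of regions were in both lines. The strongest quintile of line 15 was shared at 24.1% by −log10 q and 32.5% by height, and its weakest at 5.70%, 1.32% and, without peaks under a fold of 3, 8.26%. For line 9 the strongest quintile gave 44.0% by −log10 q, and the weakest 15.2% by −log10 q and 9.60% by height. Widths of shared regions were 403.5 bp in line 15 and 404.5 bp in line 9 by own peaks. With −log10 q of at least 5 in the TAF6L-FB lists, H3K4me3 was at 71.2% (line 15 only) and 33.3% (line 9 only), RNAP at 63.0% (line 15 only) and Oct4 at 14.1% (line 15 only) and 28.9% (line 9 only), whose interval then overlapped that of both lines (35.9%). With that minimum in the mark list, H3K4me3 was at 34.6% (both), 56.4% (line 15 only) and 25.6% (line 9 only), RNAP at 33.1%, 30.8% and 15.5%, and Oct4 at 8.76% (line 15 only). With 50% coverage, H3K4me3 was at 61.2% and 33.7%, and RNAP at 51.9% and 38.2%, of line 15 only and line 9 only. With gaps under 1000 bp these were 75.3% and 48.7%, and 63.4% and 49.5%. Leaving out each line in turn gave 42.8% to 66.0% for H3K4me3, 48.6% to 59.8% for RNAP and 14.4% to 22.4% for Oct4 over all regions, and 41.7% to 66.7% for BirA peaks overlapping TAF6L-FB, against 75% with both lines. Line 15 gave the higher H3K4me3 and RNAP values and line 9 the higher Oct4 value. Apart from the changes by construction (other ranks, own widths, fewer or wider peaks), the cause was not tested. The shares found in both lines need both lists and have no value with a line left out. No paired analysis was possible because the result comes from no test and the line numbers pair each pull-down only with its own input. Heights near 20 tags and 1 library per line limit how far an unshared peak can be called absent.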
